A study of Mus musculus with 15 samples.

Results

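Interferon-stimulated genes, which cells switch on in answer to interferon, were followed through all 15 libraries of mouse macrophages. The cells had been exposed to elongated mineral particles or left untreated. The genes were taken by name from a list of 47 symbols. Of these, 44 were among the 10653 protein-coding genes of the deposited table, and all 44 of them were among the 10616 genes tested. Mx2, Ifi44 and Oasl1 were not analysed here. By role the 44 genes were 3 transcription factors (Irf7, Irf9 and Stat2), 4 RNA sensors (Ifih1, Ddx58, Dhx58 and Zbp1), 4 IFIT proteins (Ifit1, Ifit2, Ifit3 and Ifit3b) and 4 OAS family members (Oas1a, Oas2, Oas3 and Oasl2). A further 3 belonged to the Isg15 system (Isg15, Usp18 and Herc6), 7 to effectors on RNA and nucleotides (Isg20, Rsad2, Eif2ak2, Cmpk2, Samd9l, Slfn5 and Slfn8) and 7 to the interferon-inducible GTPases (Ifi47, Irgm1, Igtp, Gbp2, Gbp3, Gbp7 and Gbp9). The remaining 12 were Mx1 and Bst2, which restrict viruses at entry and budding, 4 regulators (Parp9, Parp14, Dtx3l and Trim30a) and 6 other genes inducible by interferon alpha or beta (Rtp4, Xaf1, Ifi35, Ifi27l2a, Ifi203 and Ifi204).

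The cells were MPI cells, named after the Max Planck Institute, which grow without transformation in the cytokine GM-CSF. They came from fetal liver of female C57BL6/J mice and stand for alveolar macrophages as a culture of 1 cell type without the rest of the lung. The 4 exposed groups received riebeckite asbestos at 9 µg/cm², riebeckite cleavage fragments at 40 µg/cm², tremolite asbestos at 5 µg/cm² or tremolite cleavage fragments at 60 µg/cm², and the last group was left untreated. Both minerals are amphiboles, asbestos is their form of thin fibres, and cleavage fragments are broken, non-asbestiform particles. Exposure lasted 24 h, and the doses were set to equal particle surface area, so the mass of particle differed between groups. Each group held 3 libraries, numbered 1 to 3. The labels name no batch and do not state that the 3 were separate cultures. The p-values therefore refer to variation among these samples, part or all of which could be technical. Levels are FPKM, which are scaled by transcript length and library total, values are given in the order of the library numbers, and the read depth is unknown.

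Type I interferons are secreted proteins that bind a receptor made of Ifnar1 and Ifnar2. The kinases Jak1 and Tyk2 then phosphorylate Stat2, which joins Irf9 in a complex that binds a DNA element called the ISRE in front of many of these genes. Their products sense foreign RNA, block its translation or copying, and feed back on the pathway itself through Irf7 and Usp18. Resting macrophages keep a low, steady expression of this set, which is often called tonic.

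All 8 macrophage markers and all 12 alveolar macrophage markers were in the table. Of 9 markers of plasmacytoid dendritic cells, the cell type known for large amounts of type I interferon, only Tcf4, Runx2 and Cox6a2 were in it, and they summed to 7.98 to 11.5 FPKM over the 15 libraries. None of the markers of lymphocytes and NK cells, red cells, hepatocytes or fibroblasts was among the genes analysed here. Of 4 monocyte markers 2 were in the table, and they summed to 0.146 to 0.205 FPKM after riebeckite asbestos, 0.207 to 0.333 with riebeckite fragments, 0.396 to 0.550 with tremolite asbestos, 0.264 to 0.563 with tremolite fragments and 2.87 to 4.30 in untreated cells. Both were called lower by limma in all 4 comparisons with untreated cells. Of 9 neutrophil markers only S100a8 was in it, called higher after riebeckite asbestos, riebeckite fragments and tremolite asbestos by 1.00, 0.87 and 0.33 on the log2(FPKM + 1) scale, and at 0.02 after tremolite fragments. Of 5 epithelial markers only Cdh1 was in it, called lower in all 4, at -1.03, -0.91, -0.57 and -0.60. Of 7 markers of conventional dendritic cells 2 were in it, summing to 14.8 to 18.2 FPKM in exposed and 11.4 to 14.04 FPKM in untreated libraries. Their part in the results below was not tested. Summed FPKM over all genes lay between 257329 and 273570 per library, and 0 pairs of libraries held identical values. Among the genes analysed, the highest of the 5 group means was at least 0.5003 FPKM. No gene of the 11 listed interferons was among them, so the level of the ligands cannot be given.

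The ISRE core, GAAA followed by any 2 bases and GAAA again, searched on both strands of a window around each gene start, is the motif that the complex with Stat2 and Irf9 is known to bind. The RefSeq table for GRCm38.p6 held such a window, 250 bases before the gene start and 50 after it, for 33 of the 44 genes. The core was present in 21 of these 33, or 63.6%, against 3.92% of the 8373 tested genes that had a window and 3.44% of all 32851 windows. The GAS element, TTC followed by any 3 bases and GAA, was searched on both strands. It was present in 8 of the 33, or 24.2%, against 8.38% of the genes tested that had a window. By window it was present in 8 of 41, or 19.5%, against 8.30% of all windows. The sequences below are those of the 6 genes with a core whose libraries differed most within groups. Each is printed in the direction of transcription with bases inside a match in capitals, as the core itself or as its reverse complement.
Ifit3 (GRCm38.p6, chr19:34583279-34583578, plus strand): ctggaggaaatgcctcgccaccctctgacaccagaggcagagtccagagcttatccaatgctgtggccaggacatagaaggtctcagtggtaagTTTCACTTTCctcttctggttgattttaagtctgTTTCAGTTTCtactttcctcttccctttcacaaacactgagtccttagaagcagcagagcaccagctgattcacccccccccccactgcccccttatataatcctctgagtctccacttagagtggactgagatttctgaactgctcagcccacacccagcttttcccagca
Ifit1 (GRCm38.p6, chr19:34640639-34640938, plus strand): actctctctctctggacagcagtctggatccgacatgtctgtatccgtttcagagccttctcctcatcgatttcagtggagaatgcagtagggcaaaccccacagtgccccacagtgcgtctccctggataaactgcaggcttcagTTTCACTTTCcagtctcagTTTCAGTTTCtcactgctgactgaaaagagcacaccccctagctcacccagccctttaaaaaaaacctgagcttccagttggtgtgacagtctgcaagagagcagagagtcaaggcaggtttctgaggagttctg
Rsad2 (GRCm38.p6, chr12:26456403-26456702, minus strand): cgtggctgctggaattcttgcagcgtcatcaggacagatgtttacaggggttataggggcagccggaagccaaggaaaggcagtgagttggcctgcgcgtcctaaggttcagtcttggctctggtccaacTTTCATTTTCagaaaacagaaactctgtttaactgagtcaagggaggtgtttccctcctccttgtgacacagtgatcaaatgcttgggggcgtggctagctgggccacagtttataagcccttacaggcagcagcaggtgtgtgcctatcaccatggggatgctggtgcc
Ifit3b (GRCm38.p6, chr19:34607707-34608006, plus strand): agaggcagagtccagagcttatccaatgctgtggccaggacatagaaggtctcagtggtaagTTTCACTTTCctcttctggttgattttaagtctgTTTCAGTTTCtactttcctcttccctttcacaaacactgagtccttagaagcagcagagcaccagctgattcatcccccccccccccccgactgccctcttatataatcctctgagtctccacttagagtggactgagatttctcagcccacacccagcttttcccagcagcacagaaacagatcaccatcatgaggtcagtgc
Isg15 (GRCm38.p6, chr4:156200769-156201068, minus strand): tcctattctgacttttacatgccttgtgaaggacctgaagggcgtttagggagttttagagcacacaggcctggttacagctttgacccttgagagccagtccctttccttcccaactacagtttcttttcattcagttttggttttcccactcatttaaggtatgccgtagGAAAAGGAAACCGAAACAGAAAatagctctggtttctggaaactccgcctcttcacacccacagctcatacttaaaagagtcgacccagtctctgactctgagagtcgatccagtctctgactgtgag
Oas3 (GRCm38.p6, chr5:120777610-120777909, minus strand): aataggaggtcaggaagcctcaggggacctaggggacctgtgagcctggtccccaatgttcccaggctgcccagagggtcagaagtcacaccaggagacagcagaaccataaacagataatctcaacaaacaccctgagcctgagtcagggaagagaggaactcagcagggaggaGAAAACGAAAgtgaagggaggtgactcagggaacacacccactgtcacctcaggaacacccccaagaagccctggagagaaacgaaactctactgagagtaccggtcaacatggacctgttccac
The first match began 156 bases before the RefSeq gene start in Ifit3, 188 in Ifit3b, 104 in Ifit1, 120 in Rsad2, 78 in Isg15 and 75 in Oas3. In Isg15 there were 3 overlapping matches, and Ifit3, Ifit3b and Ifit1 had 2 each. The same words, TTTCACTTTC and TTTCAGTTTC, occurred in all 3 of these Ifit genes, which lie together on chromosome 19. The 12 genes without a match in this window were Irf7, Irf9, Isg20, Ifit2, Oasl2, Xaf1, Dtx3l, Herc6, Ifi35, Ifi47, Cmpk2 and Samd9l. The median within-group SD, defined in the next paragraphs, was 0.330 for the 21 genes with a match and 0.309 for the 12 without. A match is a description of the letters in the window and not of binding.

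The mean level of the 44 genes differed widely between libraries of the same riebeckite treatment and little between untreated libraries. On the log2(FPKM + 1) scale the mean over the 44 genes was 3.56, 4.11 and 2.92 in the 3 riebeckite asbestos libraries and 2.98, 3.93 and 2.91 in the 3 riebeckite fragment libraries. It was 4.15, 4.25 and 4.54 after tremolite asbestos, 3.59, 3.64 and 3.80 after tremolite fragments and 3.70, 3.63 and 3.69 in untreated cells. Library 2 stood highest in both riebeckite groups, the 3 tremolite asbestos libraries stood above all 12 others, and the untreated libraries were closest together.

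**Figure D1:**
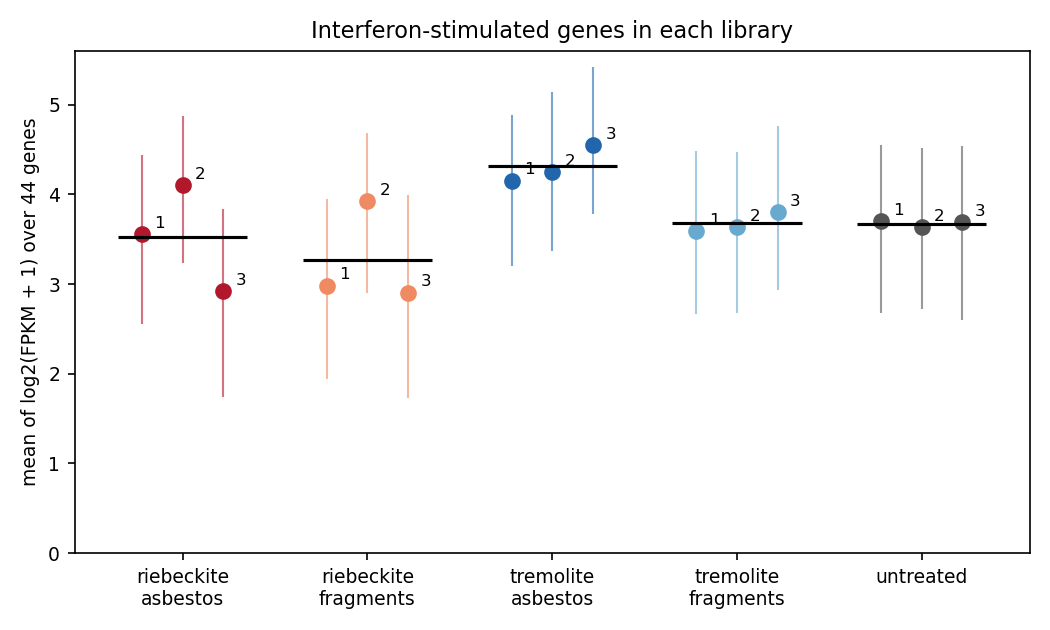
Mean log2(FPKM + 1) of the 44 interferon-stimulated genes in each library (y axis) by treatment (x axis); points carry the library number, thin vertical lines span the genes from the lower to the upper quartile and black bars are group means. Libraries 1 to 3 range over 1.18 after riebeckite asbestos and 1.02 after riebeckite fragments, against 0.07 in untreated cells.

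The group means were 3.53 ± 0.592 after riebeckite asbestos, 3.27 ± 0.568 after riebeckite fragments, 4.31 ± 0.205 after tremolite asbestos, 3.68 ± 0.108 after tremolite fragments and 3.67 ± 0.0377 in untreated cells (SD, n = 3 each). From the lowest to the highest library, the mean spanned 1.18, 1.02, 0.39, 0.21 and 0.07 in these 5 groups. That is 2.27, 2.03, 1.31, 1.15 and 1.05-fold in FPKM + 1, which understates the fold in FPKM of genes at low levels. The mean over all genes tested spanned at most 0.024 in any group. The difference from untreated cells was -0.14 for riebeckite asbestos (0.16 without its library 3 and -0.43 without its library 2), -0.40 for riebeckite fragments, 0.64 for tremolite asbestos and 0.0023 for tremolite fragments. Of these 4 differences, only that of tremolite asbestos separated the libraries without overlap. Libraries of whole cultures were measured, so fewer cells responding and less RNA per responding cell cannot be told apart.

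Set against the range of the 3 untreated libraries, library 2 of both riebeckite groups had more genes above that range than libraries 1 and 3. Riebeckite asbestos library 2 had 35 of the 44 genes above all untreated libraries and 5 below them, whereas library 3 had 2 above and 40 below, and library 1 had 16 above and 22 below. Riebeckite fragment library 2 had 31 above and 7 below, whereas libraries 1 and 3 each had 1 above, with 38 and 41 below. Every tremolite asbestos library lay on 1 side, with 37, 41 and 43 genes above and 2, 1 and 0 below. Tremolite fragment libraries were mixed, with 12, 17 and 25 above and 20, 19 and 11 below. Over all genes tested, 26.1 to 37.2% of genes were above the untreated range in a treated library and 37.2 to 46.5% below it.

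**Figure D2:**
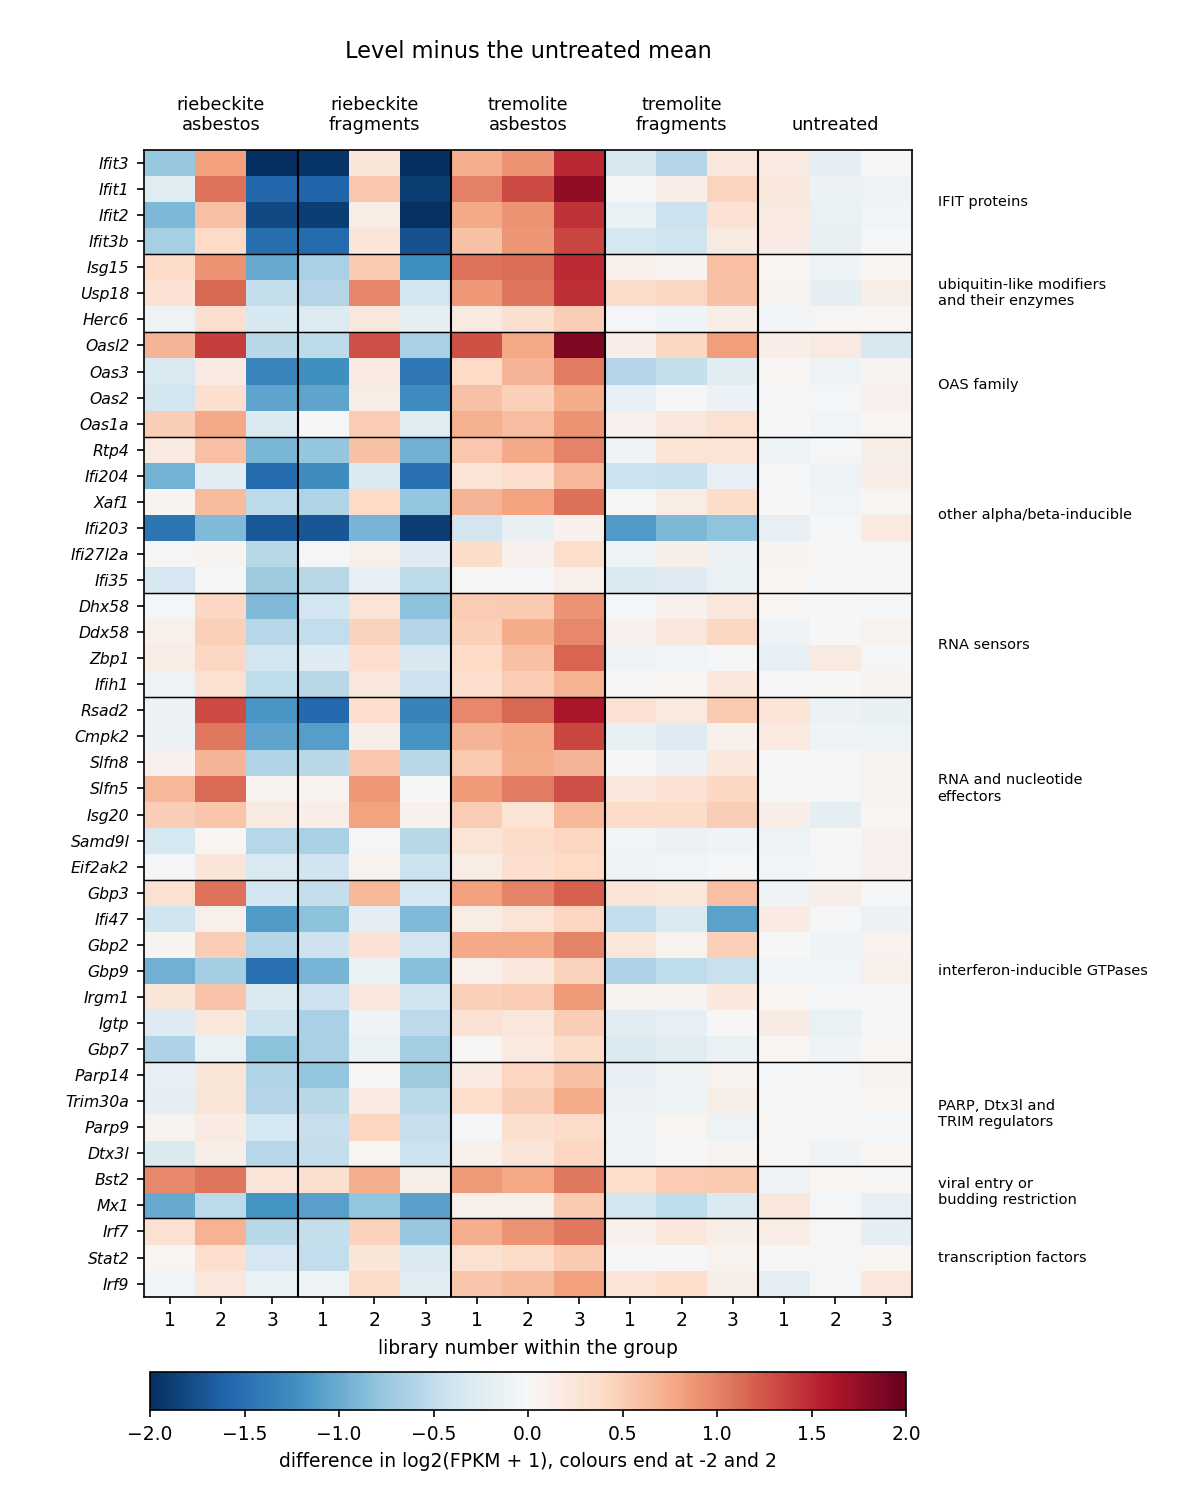
Level of each of the 44 genes (rows, grouped by role) in each of the 15 libraries (columns, with the untreated libraries at the right), as log2(FPKM + 1) minus the mean of the 3 untreated libraries, with colours running from -2 to 2. Riebeckite libraries numbered 2 differ from their neighbours across nearly all rows, and the 3 tremolite asbestos columns are above 0 in most rows.

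The within-group SD of a gene was pooled over the 5 groups on the log2(FPKM + 1) scale. Its median was 0.327 over the 44 genes, from 0.188 for Eif2ak2 to 0.959 for Ifit3, and 0.0812 over all genes tested, whose 95th percentile was 0.281. Of the 44 genes, 29 exceeded that percentile and 44 exceeded the median of all genes. The 7792 genes at a similar level had a median of 0.0788. Among the 100 genes with the largest SD of all 10616, 8 were interferon-stimulated, in the order Ifit3, Ifit1, Ifit2, Rsad2, Oasl2, Ifit3b, Isg15 and Cmpk2, with Ifit3 at rank 17. The 44 genes were chosen with earlier results of these data known, their spread between libraries among them. These counts and ranks, and those by group below, are therefore a description and carry no test.

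The spread was a feature of the riebeckite groups more than of the others. The median SD of the 44 genes was 0.533 after riebeckite asbestos, 0.466 after riebeckite fragments, 0.206 after tremolite asbestos, 0.118 after tremolite fragments and 0.0848 in untreated cells. Over all genes tested these medians were 0.0693, 0.0743, 0.0724, 0.0600 and 0.0641. In the same 5 groups, 40, 40, 10, 6 and 1 of the 44 genes exceeded the 95th percentile of all genes. By role, the median pooled SD was 0.833 for IFIT proteins, 0.549 for the Isg15 system, 0.505 for the OAS family, 0.343 for RNA sensors, 0.342 for RNA and nucleotide effectors and 0.286 for the GTPases. It was 0.367 for the other inducible genes, 0.284 for Parp9, Parp14, Dtx3l and Trim30a, 0.242 for Mx1 and Bst2 and 0.234 for the transcription factors. The role medians rest on 2 to 7 genes each.

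**Figure D3:**
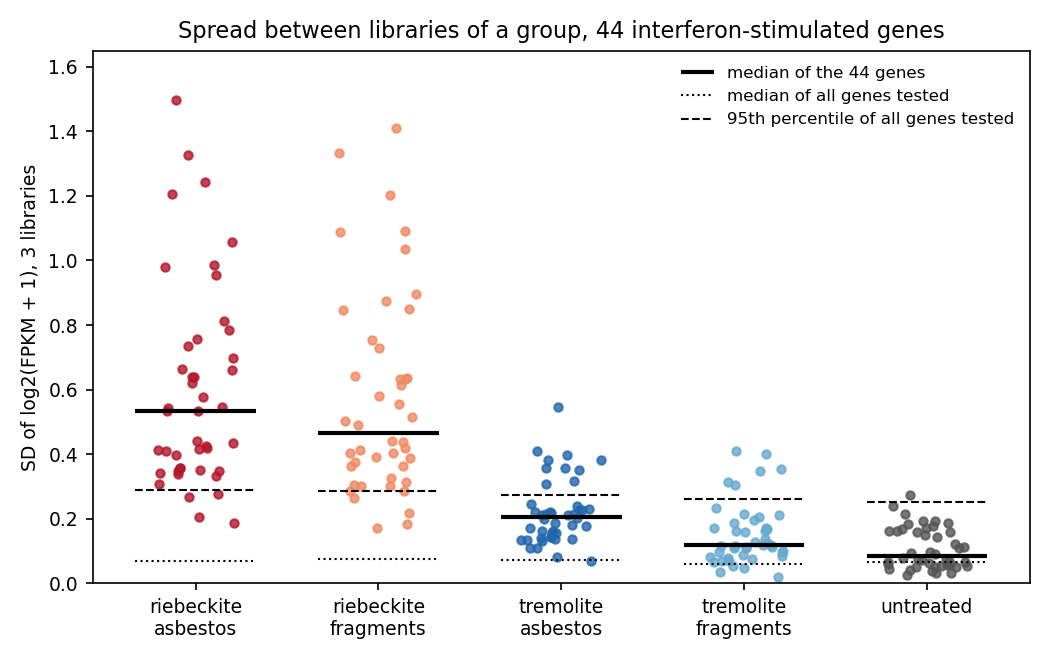
SD of log2(FPKM + 1) over the 3 libraries of a group (y axis) for each of the 44 genes (points) in the 5 groups (x axis); solid bars are medians of the 44 genes, dotted and dashed lines the median and the 95th percentile of all genes tested. The median falls between 0.466 and 0.533 in the riebeckite groups and is 0.0848 in untreated cells.

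In 3 of the groups nearly all of the 44 genes were highest in the same library, and in untreated cells fewer were. All 44 were highest in library 2 and lowest in library 3 of riebeckite asbestos, an order that 16.8% of all genes tested showed. All 44 were highest in library 2 of riebeckite fragments, as were 29.0% of all genes. In tremolite asbestos 42 of 44 were highest in library 3, the exceptions being Slfn8 and Ifi27l2a, against 25.5% of all genes. In tremolite fragments 36 of 44 were highest in library 3, against 35.4%, and in untreated cells 17 of 44 were highest in library 1, against 31.3%. The whole order of the 3 libraries shown by the mean of the 44 was shared by 44 of the 44 genes in riebeckite asbestos, 28 in riebeckite fragments (11.96% of all genes), 35 in tremolite asbestos (14.7%), 23 in tremolite fragments (19.1%) and 9 in untreated cells (20.5% of the 44, against 13.3%). Because the libraries are shared, these 44 orders are not independent of each other. The highest library and the order were also taken from the mean of the same 44 genes. Agreement among the 44 is therefore partly built in, which it is not for all genes, and the counts carry no test.

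The genes that set library 2 apart in both riebeckite groups at once came from the interferon and antigen presentation lists. Ratios here are of FPKM + 1, so genes at low levels pass the cut less readily than on FPKM alone. On this scale, 52 genes in riebeckite asbestos library 2 stood at least 1.5 times above both other libraries, and 11 of them were interferon-stimulated. In riebeckite fragment library 2 there were 80 such genes, of which 31 were interferon-stimulated. Both libraries shared 17 such genes. Of the 17, 11 were of the 44 (Ifit1, Ifit2, Ifit3, Ifit3b, Oas2, Oasl2, Rsad2, Cmpk2, Usp18, Ifi204 and Gbp3). The other 6 were Ifi209, Ifi211, Phf11b, Phf11d, Rnf213 and Tap1. Each was on 1 of the lists of interferon-responsive or antigen presentation genes, so 0 of the 17 came from outside these lists. The lists were chosen with earlier results of these data known, and the share of all genes on them is not given. The count is therefore a description and carries no test. Riebeckite asbestos library 3 was at least 1.5 times below both others in 85 genes, of which 23 were interferon-stimulated. In tremolite asbestos library 3, 42 genes stood above both others, of which 2 were interferon-stimulated. On this scale the other libraries had 0 of the 44 at least 1.5 times above both others, and riebeckite fragment library 3 had 1 below.

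**Figure D4:**
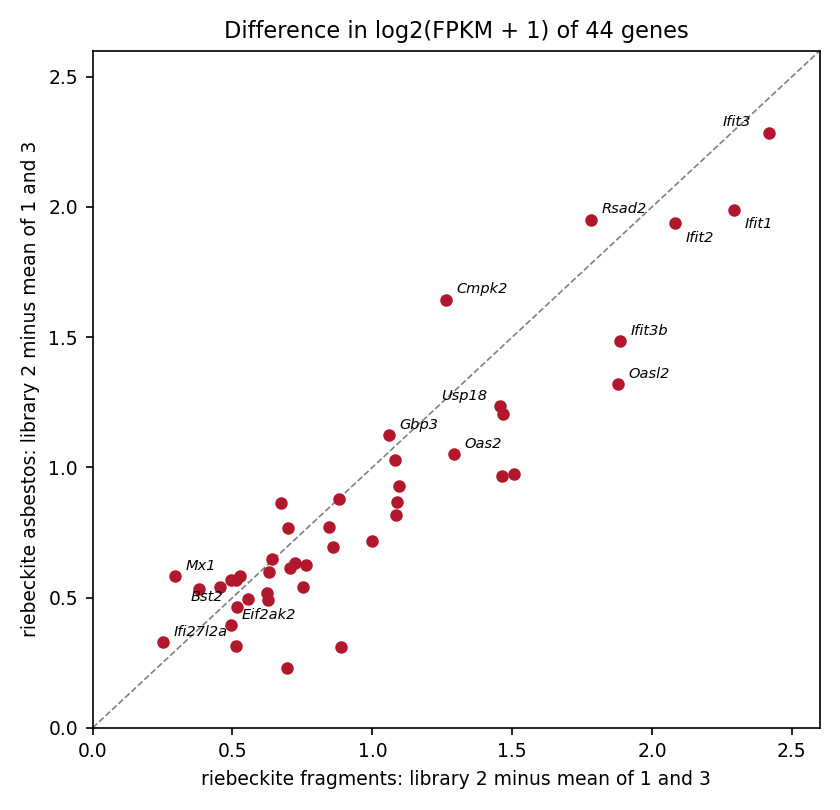
Excess of library 2 over the mean of libraries 1 and 3 in log2(FPKM + 1), in riebeckite asbestos (y axis) and in riebeckite fragments (x axis); each point is 1 of the 44 genes and the dashed line marks equality. All 44 points are above 0 on both axes, with Ifit3 at 2.29 and 2.42.

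Gene by gene, the excess of library 2 over the mean of libraries 1 and 3 had a median of 0.71 in riebeckite asbestos and 0.80 in riebeckite fragments on the log2(FPKM + 1) scale. Over all genes tested the medians were 0.0033 and -0.0087. Across the 44 genes the excesses of both groups had a Pearson correlation of 0.916 and a Spearman correlation of 0.865, against 0.172 and 0.127 across all 10616 genes. These points come from the same 6 libraries, and they carry no test. The mean of the 3 plasmacytoid markers in the table was 1.58, 1.72 and 1.63 on the log2(FPKM + 1) scale in riebeckite asbestos libraries 1 to 3, highest in library 2, and 1.73, 1.63 and 1.61 in riebeckite fragment libraries 1 to 3, highest in library 1. What set library 2 apart was not tested.

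The 4 IFIT proteins, which bind viral RNA and block its translation, had the widest spread. Ifit3 (chr19:34583531-34588731 on the plus strand) was at 8.25, 26.7 and 2.48 FPKM with riebeckite asbestos, 3.01, 17.5 and 2.00 with riebeckite fragments, 24.9, 28.1 and 43.3 with tremolite asbestos, 11.5, 9.41 and 17.2 with tremolite fragments, and 16.8, 12.7 and 14.8 in untreated cells. The highest and the lowest riebeckite asbestos library differed by 10.8 times, those of riebeckite fragments by 8.74 times and the untreated ones by 1.33 times. Ifit1 (chr19:34640871-34650009 on the plus strand), which recognises the capped ends of foreign RNA, was at 11.5, 30.3 and 3.98 FPKM with riebeckite asbestos, 3.83, 20.5 and 2.96 with riebeckite fragments, 28.6, 35.5 and 49.2 with tremolite asbestos, 13.8, 15.1 and 19.1 with tremolite fragments, and 16.1, 12.6 and 12.7 in untreated cells. Ifit2 (chr19:34550694-34576419 on the plus strand) was at 7.36, 22.4 and 3.48 FPKM with riebeckite asbestos, 3.22, 16.3 and 2.95 with riebeckite fragments, 25.4, 28.2 and 41.2 with tremolite asbestos, 13.3, 10.6 and 17.9 with tremolite fragments, and 16.6, 13.2 and 14.1 in untreated cells. In Ifit1 and Ifit2 the tremolite asbestos libraries were above all untreated libraries, and libraries 1 and 3 of both riebeckite groups were below them. Library 2 was above the untreated range in both riebeckite groups for Ifit1, and in riebeckite asbestos for Ifit2, where riebeckite fragment library 2 was within it. Ifit3b (chr19:34607970-34613401 on the plus strand), a copy of Ifit3, was at 2.54, 6.40 and 0.975 FPKM with riebeckite asbestos, 0.926, 5.66 and 0.686 with riebeckite fragments, 7.44, 9.35 and 13.3 with tremolite asbestos, 3.43, 3.29 and 5.34 with tremolite fragments, and 5.31, 4.08 and 4.56 in untreated cells. Of the 50-base words in Ifit3 transcripts, 51.2% also occurred in another gene, mainly Ifit3b, so reads of this pair can be divided uncertainly. The mean of the 4 genes on the log2(FPKM + 1) scale was 3.02 ± 1.24 after riebeckite asbestos, 2.42 ± 1.26 after riebeckite fragments, 4.67 ± 0.380 after tremolite asbestos, 3.50 ± 0.318 after tremolite fragments and 3.57 ± 0.171 in untreated cells (SD, n = 3 each).

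Isg15, a ubiquitin-like protein that is attached to other proteins, was at 26.6, 38.2 and 9.47 FPKM with riebeckite asbestos, 12.5, 29.5 and 7.99 with riebeckite fragments, 43.6, 44.6 and 58.2 with tremolite asbestos, 21.5, 21.1 and 31.2 with tremolite fragments, and 20.8, 18.9 and 20.7 in untreated cells. Usp18, the protease that removes Isg15 and damps the receptor, was at 1.77, 3.99 and 0.621 FPKM with riebeckite asbestos, 0.506, 3.42 and 0.730 with riebeckite fragments, 3.11, 3.74 and 5.24 with tremolite asbestos, 1.91, 2.02 and 2.38 with tremolite fragments, and 1.37, 0.976 and 1.45 in untreated cells. In Usp18 every tremolite asbestos and every tremolite fragment library was above the untreated range, as were riebeckite asbestos libraries 1 and 2 and riebeckite fragment library 2. The OAS proteins make short oligoadenylates that switch on RNase L. Oas1a was at 43.6, 52.2 and 24.9 FPKM with riebeckite asbestos, 30.4, 44.1 and 25.7 with riebeckite fragments, 50.8, 47.7 and 58.2 with tremolite asbestos, 32.4, 36.02 and 38.2 with tremolite fragments, and 30.9, 29.5 and 31.6 in untreated cells, and 57.6% of its 50-base words occurred in another gene, mainly Oas1g. Oas3 was at 2.35, 3.63 and 0.662 FPKM with riebeckite asbestos, 0.771, 3.68 and 0.531 with riebeckite fragments, 4.46, 5.62 and 7.46 with tremolite asbestos, 1.75, 1.98 and 2.58 with tremolite fragments, and 3.27, 2.84 and 3.31 in untreated cells. In Oas3 library 2 was the only riebeckite library of its group above the untreated range, and all 3 tremolite fragment libraries were below it. Oasl2, an OAS-like protein, was at 8.86, 15.1 and 3.19 FPKM with riebeckite asbestos, 3.28, 14.1 and 2.91 with riebeckite fragments, 13.8, 9.52 and 21.4 with tremolite asbestos, 5.77, 7.15 and 9.94 with tremolite fragments, and 5.74, 5.97 and 3.94 in untreated cells. The lowest library of each riebeckite group, at 3.19 and 2.91 FPKM, was below every untreated library, and all 3 tremolite asbestos libraries were above.

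Rsad2, or viperin, makes a nucleotide that ends viral RNA chains, and Cmpk2 is a nucleotide kinase encoded next to it on chromosome 12. Rsad2 was at 3.91, 12.2 and 1.37 FPKM with riebeckite asbestos, 0.819, 5.74 and 1.11 with riebeckite fragments, 9.35, 10.9 and 15.6 with tremolite asbestos, 5.54, 5.13 and 6.64 with tremolite fragments, and 5.45, 3.90 and 3.78 in untreated cells. Cmpk2 was at 3.03, 8.12 and 1.11 FPKM with riebeckite asbestos, 1.03, 3.76 and 0.942 with riebeckite fragments, 5.99, 6.39 and 10.00 with tremolite asbestos, 2.95, 2.67 and 3.63 with tremolite fragments, and 4.02, 3.13 and 3.06 in untreated cells. In both genes the 3 tremolite asbestos libraries were above the untreated range, and libraries 1 and 3 of riebeckite fragments were below it. Slfn5, a member of the Schlafen family, was at 38.7, 54.4 and 25.5 FPKM with riebeckite asbestos, 25.4, 45.2 and 24.00 with riebeckite fragments, 44.6, 50.7 and 60.7 with tremolite asbestos, 28.2, 29.9 and 32.5 with tremolite fragments, and 23.6, 23.4 and 25.6 in untreated cells. Eif2ak2, the kinase PKR that halts translation when it meets double-stranded RNA, was at 36.01, 43.2 and 29.5 FPKM with riebeckite asbestos, 27.4, 38.6 and 26.7 with riebeckite fragments, 40.5, 46.6 and 48.5 with tremolite asbestos, 34.6, 35.1 and 35.5 with tremolite fragments, and 35.1, 35.99 and 38.6 in untreated cells. Eif2ak2 had the smallest pooled SD of the 44 genes, and its tremolite asbestos libraries were still above all untreated ones. Samd9l, an antiviral factor, was at 42.2, 55.3 and 35.9 FPKM with riebeckite asbestos, 33.9, 52.1 and 36.4 with riebeckite fragments, 65.2, 69.6 and 72.8 with tremolite asbestos, 51.7, 49.4 and 51.2 with tremolite fragments, and 50.04, 54.1 and 57.4 in untreated cells. All 3 tremolite asbestos libraries of Samd9l were above the untreated range, and libraries 1 and 3 of both riebeckite groups were below it.

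Irf9, the DNA-binding subunit of its complex with Stat2, was at 8.33, 10.3 and 7.79 FPKM with riebeckite asbestos, 8.05, 11.4 and 7.35 with riebeckite fragments, 13.2, 13.97 and 16.02 with tremolite asbestos, 10.6, 11.3 and 9.47 with tremolite fragments, and 7.40, 8.45 and 10.3 in untreated cells. Irf7, the factor that amplifies interferon production, was at 4.30, 5.92 and 1.92 FPKM with riebeckite asbestos, 2.09, 4.94 and 1.55 with riebeckite fragments, 6.13, 6.99 and 7.93 with tremolite asbestos, 3.57, 3.98 and 3.67 with tremolite fragments, and 3.76, 3.38 and 2.80 in untreated cells. In both factors the 3 tremolite asbestos libraries were above every untreated library. Ifih1, or MDA5, a sensor of long double-stranded RNA, was at 8.17, 11.2 and 5.91 FPKM with riebeckite asbestos, 5.71, 10.5 and 6.39 with riebeckite fragments, 11.4, 12.99 and 14.8 with tremolite asbestos, 8.84, 9.12 and 10.4 with tremolite fragments, and 8.51, 8.74 and 9.20 in untreated cells. Zbp1, a sensor of Z-form nucleic acids, was at 15.6, 18.8 and 10.5 FPKM with riebeckite asbestos, 11.5, 17.9 and 11.01 with riebeckite fragments, 18.6, 21.5 and 32.3 with tremolite asbestos, 12.8, 13.4 and 13.7 with tremolite fragments, and 12.3, 15.97 and 13.7 in untreated cells. In Ifih1 and Zbp1 the tremolite asbestos libraries were again above all untreated ones, and riebeckite libraries 1 and 3 were below riebeckite library 2 in both groups. Dtx3l, a ubiquitin ligase that pairs with Parp9, was at 21.03, 28.6 and 17.2 FPKM with riebeckite asbestos, 18.3, 26.8 and 19.3 with riebeckite fragments, 27.95, 30.8 and 35.2 with tremolite asbestos, 24.2, 26.1 and 26.9 with tremolite fragments, and 26.4, 24.8 and 26.7 in untreated cells. Trim30a, a regulator of inflammatory signalling, was at 28.1, 38.03 and 20.8 FPKM with riebeckite asbestos, 21.2, 35.97 and 21.5 with riebeckite fragments, 40.7, 45.03 and 53.7 with tremolite asbestos, 29.2, 30.1 and 34.7 with tremolite fragments, and 31.7, 30.9 and 32.9 in untreated cells. Both showed the same order within the riebeckite groups, with library 2 highest.

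Bst2 (chr8:71534255-71537456 on the minus strand), or tetherin, holds budding virus at the cell surface. It was at 172, 186 and 106 FPKM with riebeckite asbestos, 110.1, 147 and 95.7 with riebeckite fragments, 159.7, 152 and 185 with tremolite asbestos, 113, 126 and 128 with tremolite fragments, and 84.4, 90.8 and 90.2 in untreated cells. All 12 exposed libraries were above all 3 untreated ones. Mx1 (chr16:97447035-97462907 on the minus strand), a GTPase against influenza virus that is disrupted in the C57BL/6 strain, was at 0.171, 0.639 and 0.0254 FPKM with riebeckite asbestos, 0.108, 0.358 and 0.105 with riebeckite fragments, 1.51, 1.51 and 2.37 with tremolite asbestos, 0.829, 0.643 and 0.930 with tremolite fragments, and 1.71, 1.29 and 1.09 in untreated cells. All riebeckite and all tremolite fragment libraries of Mx1 were below all untreated libraries, and 5 of the 6 riebeckite libraries were below 0.5 FPKM. Ifi27l2a, a small interferon-inducible membrane protein, was the most abundant of the 44 and stood at 186, 191 and 124 FPKM with riebeckite asbestos, 179, 197 and 153 with riebeckite fragments, 236, 194 and 233 with tremolite asbestos, 173, 198 and 168 with tremolite fragments, and 189.7, 182 and 177 in untreated cells. Ifi35, an interferon-induced leucine zipper protein, was at 16.6, 21.5 and 12.7 FPKM with riebeckite asbestos, 14.2, 18.9 and 14.4 with riebeckite fragments, 21.6, 20.6 and 22.8 with tremolite asbestos, 17.3, 17.6 and 19.2 with tremolite fragments, and 21.8, 20.9 and 21.1 in untreated cells. In Ifi35 riebeckite asbestos library 2 was the only riebeckite library within the untreated range, and the other 5 were below it.

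Ifi203 (chr1:173920407-173942672 on the minus strand) and Ifi204 (chr1:173747293-173766943 on the minus strand) encode nuclear proteins with HIN domains, the fold that also serves DNA sensors. Ifi203 was at 1.26, 2.37 and 0.922 FPKM with riebeckite asbestos, 0.893, 2.25 and 0.688 with riebeckite fragments, 3.82, 4.60 and 5.62 with tremolite asbestos, 1.82, 2.34 and 2.54 with tremolite fragments, and 4.54, 5.04 and 6.13 in untreated cells. All 6 riebeckite and all 3 tremolite fragment libraries were below all 3 untreated ones. Ifi204 was at 14.6, 24.9 and 9.34 FPKM with riebeckite asbestos, 11.8, 23.8 and 9.74 with riebeckite fragments, 35.4, 37.1 and 47.1 with tremolite asbestos, 21.4, 21.1 and 25.9 with tremolite fragments, and 28.5, 27.1 and 32.1 in untreated cells, and 20.0% of its 50-base words occurred in another gene, mainly Ifi211. The 3 tremolite asbestos libraries of Ifi204 were above the untreated range, and the other 9 exposed libraries were below it.

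The guanylate-binding proteins and the immunity-related GTPases attack membranes around intracellular microbes. Gbp2 was at 20.5, 28.3 and 12.8 FPKM with riebeckite asbestos, 14.5, 24.4 and 14.9 with riebeckite fragments, 34.05, 34.2 and 40.05 with tremolite asbestos, 23.3, 20.8 and 27.9 with tremolite fragments, and 19.8, 18.6 and 20.9 in untreated cells. Gbp3 was at 6.71, 12.2 and 3.76 FPKM with riebeckite asbestos, 3.47, 8.80 and 3.95 with riebeckite fragments, 9.98, 11.3 and 13.2 with tremolite asbestos, 6.46, 6.18 and 8.44 with tremolite fragments, and 4.87, 5.78 and 5.04 in untreated cells. In Gbp3 all 6 tremolite libraries were above the untreated range. Gbp7 was at 16.5, 23.4 and 14.2 FPKM with riebeckite asbestos, 16.1, 23.3 and 15.6 with riebeckite fragments, 26.1, 29.5 and 33.3 with tremolite asbestos, 20.9, 21.6 and 23.4 with tremolite fragments, and 26.3, 24.4 and 26.5 in untreated cells. Gbp9 (chr5:105077630-105139539 on the minus strand) was at 2.77, 3.56 and 1.60 FPKM with riebeckite asbestos, 2.85, 5.64 and 3.03 with riebeckite fragments, 6.84, 7.57 and 9.05 with tremolite asbestos, 3.78, 4.16 and 4.39 with tremolite fragments, and 6.06, 6.03 and 6.89 in untreated cells. In Gbp7 and Gbp9 all 6 riebeckite and all 3 tremolite fragment libraries were below the untreated range. The transcripts listed for Gbp9 summed to 14.1% of its gene value and those for Mx1 to 53.2%. This share was at least 90% for the other 42 of the 44 genes, from 96.2% for Rsad2 to 267.9% for Irgm1. Sums well above the gene value included 159.7% for Ifi203, 174.9% for Irf9 and 224.3% for Zbp1. Gene and transcript values therefore differ for more genes than Gbp9. Irgm1, which protects a cell's own membranes, was at 17.3, 22.1 and 11.7 FPKM with riebeckite asbestos, 10.6, 17.1 and 10.8 with riebeckite fragments, 20.7, 21.1 and 27.2 with tremolite asbestos, 15.1, 15.1 and 17.1 with tremolite fragments, and 14.97, 14.1 and 14.5 in untreated cells. The 3 tremolite asbestos and the 3 tremolite fragment libraries of Irgm1 were above the untreated range. The 13 genes not given library by library had group means of 0.927 to 33.8 FPKM and pooled SDs from 0.210 to 0.537.

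The question of each treatment against untreated cells was put to a limma fit of all 15 libraries, with a call at an adjusted p under 0.05 over 10616 genes. Fold changes are differences of means of log2(FPKM + 1), which understate the change of low genes. The median standard error was 0.239 for the 44 genes and 0.0663 for all genes tested, so a given change was called less readily among the 44. It was shared by all groups, although the median SD of the 44 genes was 0.0848 in untreated cells and 0.533 after riebeckite asbestos. The shared error therefore understates the spread of the riebeckite libraries and overstates that of the other groups. The 4 comparisons share the same 3 untreated libraries.

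After riebeckite asbestos, Bst2 rose and Ifi203, Mx1, Gbp9, Gbp7 and Ifi204 fell against untreated cells, and 38 of the 44 genes were not called. That is 1 of 44 higher, against 21% of all genes tested, and 5 lower, against 24.3%. Bst2 averaged 155 ± 43.2 FPKM after riebeckite asbestos and 88.5 ± 3.56 FPKM in untreated cells (SD, n = 3 each), a log2 difference of 0.76 (SE 0.186, limma adjusted p = 0.00481). Ifi203 averaged 1.52 ± 0.758 against 5.24 ± 0.809 FPKM in untreated cells, a log2 difference of -1.34 (SE 0.241, limma adjusted p = 0.000539). Mx1 was at -0.91 (SE 0.170, limma adjusted p = 0.000751) and Gbp9 at -1.04 (SE 0.210, limma adjusted p = 0.00127). Gbp7 was at -0.52 and Ifi204 at -0.90, with limma adjusted p = 0.0213 and 0.0318. The median log2 difference of the 44 genes was -0.04, against -0.017 for all genes. Libraries did not overlap in 2 genes above and 5 below, against 25.7% and 29.6% of all genes tested. Without riebeckite asbestos library 3, 4 genes were higher, and without library 2, 9 were lower. Without riebeckite asbestos library 1 or 3 or untreated library 1 or 3, 3 were lower.

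After riebeckite fragments, Ifi203, Mx1, Ifi204, Gbp9, Gbp7, Ifi35 and Samd9l fell, 0 of the 44 rose and 37 were not called. That is 7 of 44 lower, against 23.1% of all genes tested, and 0 of 44 higher, against 15.3%. Ifi203 averaged 1.28 ± 0.846 FPKM after riebeckite fragments and 5.24 ± 0.809 FPKM in untreated cells (SD, n = 3 each), a log2 difference of -1.51 (SE 0.241, limma adjusted p = 0.000268). Mx1 was at -0.99 (limma adjusted p = 0.00047), Ifi204 at -1.01 (limma adjusted p = 0.0222) and Gbp9 at -0.64 (limma adjusted p = 0.0281). Gbp7 was at -0.49, Ifi35 at -0.41 and Samd9l at -0.42, with limma adjusted p = 0.0324, 0.0357 and 0.0467. Samd9l is the 1 of the 7 whose libraries overlapped. The median log2 difference was -0.31 over the 44 genes and -0.044 over all genes, and 37 of the 44 were negative. Libraries did not overlap in 1 gene above and 7 below, against 19.2% and 29.9% of all genes tested. Without riebeckite fragment library 2 the count of lower genes was 22. It was 2 without riebeckite fragment library 1 or 3 or untreated library 3, and 3 without untreated library 1 or 2.

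After tremolite asbestos, genes of nearly every role stood above untreated cells, although few passed the test. Bst2, Irf9, Slfn5, Gbp2, Oas1a, Zbp1, Irgm1, Gbp3 and Irf7 rose and 0 of 44 fell. That is 9 of 44, or 20.5%, called higher, against 10% of all genes tested, and 0 lower, against 13.9%. Libraries did not overlap in 37 of the 44 genes, all above, against 15.9% of all genes tested above and 23.9% below. Bst2 averaged 166 ± 16.9 FPKM after tremolite asbestos and 88.5 ± 3.56 FPKM in untreated cells (SD, n = 3 each), a log2 difference of 0.89 (SE 0.186, limma adjusted p = 0.00345). Irf9 averaged 14.4 ± 1.45 against 8.72 ± 1.47 FPKM in untreated cells, a difference of 0.67 (SE 0.149, limma adjusted p = 0.00519). Slfn5 averaged 51.99 ± 8.10 against 24.2 ± 1.20 FPKM in untreated cells, a difference of 1.06 (SE 0.249, limma adjusted p = 0.00728). The other 6 called genes had differences of 0.62 (Irgm1) to 1.00 (Gbp3), with limma adjusted p of 0.0208 (Gbp2) to 0.0499 (Irf7).

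The 5 largest differences after tremolite asbestos were not called. Ifit1 was higher by 1.36 on the log2(FPKM + 1) scale (limma adjusted p = 0.14), Oasl2 by 1.31 (limma adjusted p = 0.0929), Rsad2 by 1.25 (limma adjusted p = 0.118), Isg15 by 1.23 (limma adjusted p = 0.0668) and Usp18 by 1.13 (limma adjusted p = 0.0568). For each of these 5 the tremolite asbestos libraries did not overlap the untreated ones. The pooled SD behind their errors holds the riebeckite libraries. A fit of only tremolite asbestos and untreated cells called 34 of the 44 genes higher, against 9.17% of all genes tested. Without library 2 of both riebeckite groups, the fit of all groups also called 34 higher, against 10.4% of all genes. That omission was chosen after the data were seen. The median log2 difference of the 44 genes was 0.64, against -0.033 for all genes, and 43 of the 44 were positive. The count of 9 was 3 without tremolite asbestos library 3 or untreated library 1, 4 without untreated library 2 or 3, 5 without tremolite asbestos library 1 and 6 without library 2.

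After tremolite fragments, Ifi203 fell, 0 of the 44 rose and 43 were not called. That is 1 of 44 lower, against 15% of all genes tested, and 0 higher, against 12.5%. Ifi203 averaged 2.23 ± 0.374 FPKM after tremolite fragments and 5.24 ± 0.809 FPKM in untreated cells (SD, n = 3 each), a log2 difference of -0.95 (SE 0.241, limma adjusted p = 0.0102). Positive and negative differences were near even, at 21 and 23 genes, with a median of -0.0063, against -0.023 for all genes. Libraries did not overlap in 9 genes above and 8 below, against 19.6% and 25.5% of all genes tested. A fit of only tremolite fragments and untreated cells called 4 of the 44 higher and 7 lower, against 12.2% and 14.7% of all genes.

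**Figure D5:**
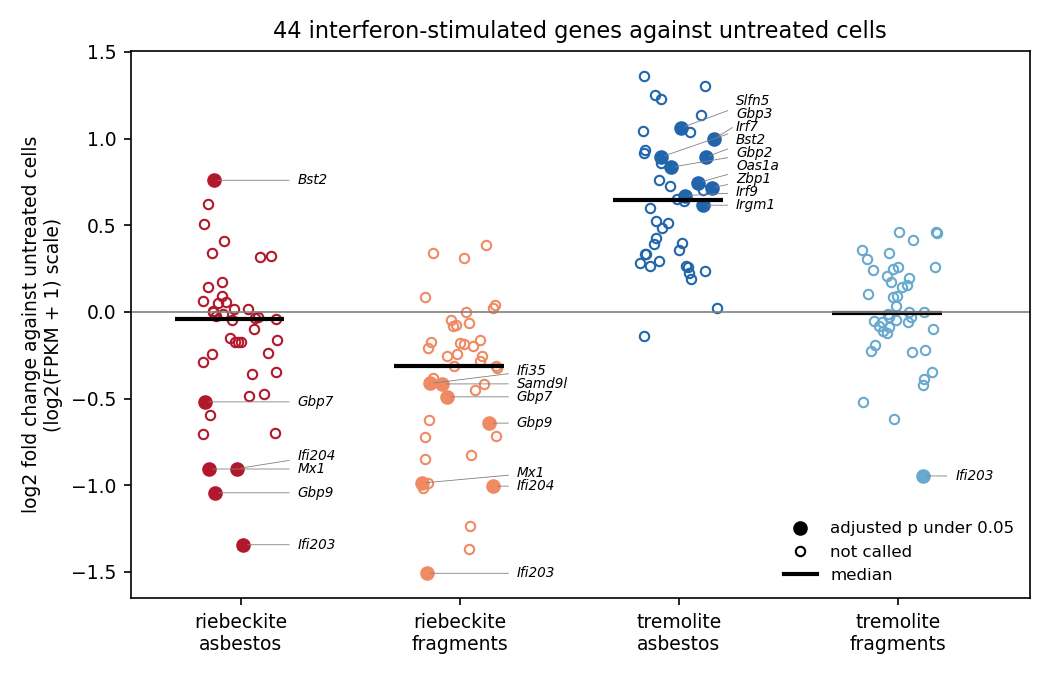
Difference from untreated cells in log2(FPKM + 1) (y axis) for each of the 44 genes after each of the 4 treatments (x axis); filled points are called by limma at an adjusted p under 0.05 and bars are medians. The medians are -0.04 and -0.31 for riebeckite asbestos and fragments, 0.64 for tremolite asbestos and -0.0063 for tremolite fragments.

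Asbestos was next compared with fragments of the same mineral. Between riebeckite asbestos and riebeckite fragments 0 of the 44 genes were called in either direction by limma, and 0 had an unadjusted p under 0.05, against 6.71% of all genes tested called higher and 3.85% lower. Libraries overlapped in 44 of 44 genes, against 18% of all genes above and 11% below without overlap. The differences were positive in 40 of 44 genes, with a median of 0.23 (all genes 0.022). The mean over the 44 genes was higher by 0.26 with every library included, and the difference was -0.031 without riebeckite asbestos library 2, 0.56 without its library 3 and 0.58 without riebeckite fragment library 2. Without riebeckite asbestos library 3, 1 gene was called higher.

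Between tremolite asbestos and tremolite fragments limma called 0 of the 44 genes in either direction, against 0.386% of all genes tested higher and 0.556% lower. An unadjusted p under 0.05 was reached by 23 of the 44. All 44 differences were positive, with a median of 0.61 (all genes -0.011), and in 40 of 44 genes every asbestos library was above every fragment library, against 7.04% of all genes tested above and 9.98% below. A fit of only these 2 groups called 4 of the 44 higher, against 0.16% of all genes. Without library 2 of both riebeckite groups, the fit of all groups called 11 higher, against 0.612% of all genes. That omission was chosen after the data were seen, and the count of 0 thus depended on riebeckite libraries outside this comparison. The mean over the 44 genes was 4.31 ± 0.205 after tremolite asbestos and 3.68 ± 0.108 after tremolite fragments (SD, n = 3 each), with no overlap. Leaving out each of the 6 libraries in turn kept that difference between 0.524 and 0.721.

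The minerals were compared within each habit, tremolite over riebeckite. Tremolite asbestos exceeded riebeckite asbestos in 17 of the 44 genes, or 38.6%, and 0 were lower, against 11% of all genes tested called higher and 15.5% lower. Mx1 averaged 1.80 ± 0.497 FPKM after tremolite asbestos and 0.278 ± 0.321 FPKM after riebeckite asbestos (SD, n = 3 each), a log2 difference of 1.14 (SE 0.170, limma adjusted p = 0.000321). Ifi203 was higher by 1.20 (SE 0.241, limma adjusted p = 0.00275), Irf9 by 0.66 (limma adjusted p = 0.00593), Gbp7 by 0.71 (limma adjusted p = 0.00706), Samd9l by 0.65 (limma adjusted p = 0.00729) and Ifi204 by 1.33 (limma adjusted p = 0.00739). Gbp9 was higher by 1.31 in the gene table (limma adjusted p = 0.000591), and the difference was -0.22 with summed transcripts (limma adjusted p = 0.606). The other 10 were Gbp2, Trim30a, Dtx3l, Ifit3b, Ifih1, Oas3, Ifit2, Ifi27l2a, Igtp and Zbp1, with differences of 0.43 (Ifi27l2a) to 1.74 (Ifit2) and limma adjusted p of 0.018 (Gbp2) to 0.0491 (Zbp1). In Dtx3l and Zbp1 the libraries overlapped. Of the 44 genes 22 did not overlap, all above, against 17.4% of all genes tested above and 23.3% below. The median difference was 0.72 (all genes -0.014). The count was 37 without riebeckite asbestos library 2, 9 without library 1 and 7 without library 3, and it was 7 without tremolite asbestos library 3, 9 without library 2 and 14 without library 1. A fit of only these 2 groups called 7 higher, against 7.52% of all genes.

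Tremolite fragments exceeded riebeckite fragments in 1 of the 44 genes and were lower in 0, against 6.01% of all genes tested called higher and 5.31% lower. That gene was Mx1, with 0.801 ± 0.145 FPKM after tremolite fragments and 0.191 ± 0.145 FPKM after riebeckite fragments (SD, n = 3 each), a log2 difference of 0.60 (SE 0.170, limma adjusted p = 0.0388). The call was lost when riebeckite fragment library 1 or 3 or any tremolite fragment library was left out, and without riebeckite fragment library 2 there were 10 calls. Differences were positive in 43 of 44 genes, with a median of 0.36 (all genes 0.019), and libraries did not overlap in 1, against 18.6% of all genes above and 13.4% below.

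The difference between the asbestos effects of both minerals, tremolite minus riebeckite, was called for Gbp9 alone of the 44, higher, with 0 lower, against 1.28% and 2.65% of all genes tested. It was 1.18 on the log2(FPKM + 1) scale (SE 0.297, limma adjusted p = 0.0455). Gbp9 averaged 7.82 ± 1.12 FPKM after tremolite asbestos against 4.11 ± 0.304 after tremolite fragments, and 2.64 ± 0.987 FPKM after riebeckite asbestos against 3.84 ± 1.56 after riebeckite fragments (SD, n = 3 each). With the listed transcripts of Gbp9 summed in place of its gene value, the difference was -0.0703 (limma adjusted p = 0.947). The call was also lost without riebeckite asbestos library 1 or 3, riebeckite fragment library 2 or any 1 of the 6 tremolite libraries. All 44 of these differences were positive, with a median of 0.36 (all genes -0.034).

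The comparisons with riebeckite were repeated without library 2 of both riebeckite groups, a choice made after the data were seen. These are the libraries in which all 44 genes were highest, so lower riebeckite levels follow from the choice and the counts are a description. Set against untreated cells, 18 of the 44 genes were then lower after riebeckite asbestos, beside 22.1% of all genes tested, and 30 after riebeckite fragments, beside 20.2%. Tremolite asbestos then exceeded riebeckite asbestos in 41 genes, against 10.2% of all genes, and tremolite fragments exceeded riebeckite fragments in 28, against 4.47%. The mean over the 44 genes then differed from untreated cells by -0.43 after riebeckite asbestos and by -0.73 after riebeckite fragments. Between riebeckite asbestos and fragments 0 genes were called with or without the pair, and the mean difference was 0.30 without it. The difference of asbestos effects had 1 call with or without it.

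Of 42 single-gene results recomputed under the alternatives of processing and library choice, 13 kept direction and call under every alternative that gave a value. They were Bst2 and Ifi203 for riebeckite asbestos, Ifi203 for riebeckite fragments, Bst2, Irf9 and Slfn5 for tremolite asbestos and Ifi203 for tremolite fragments, each against untreated cells. The other 6 were Mx1, Ifi203, Irf9, Gbp7, Samd9l and Ifi204 for tremolite over riebeckite asbestos.

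Some genes stood apart from the set as a whole. Each gene's level was taken relative to the mean of the 44 genes in its own library. This removes the mean shift between libraries but not its unequal size across genes. In riebeckite fragments the excess of library 2 ran from 0.25 for Ifi27l2a to 2.42 for Ifit3. A gene that shifts little therefore rises on this scale where the set is low. On this scale Bst2 was above untreated cells without overlap in all 4 treatments, by 0.90, 0.79, 0.25 and 0.46 after riebeckite asbestos, riebeckite fragments, tremolite asbestos and tremolite fragments. Slfn5 was above by 0.77, 0.71, 0.42 and 0.30, and Gbp3, Usp18 and Oas1a were likewise above in all 4. Ifi203 was below in all 4, by -1.20, -1.11, -0.78 and -0.95, and Mx1, Gbp9 and Ifi204 were likewise below. These values are relative, so a fall in some of the 44 raises the rest, and they carry no test. No share of all genes was computed on this scale.

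The same library order was looked for across all genes. In all 5 groups, 5 of 10616 genes ordered their libraries as the mean of the 44 did. They were Ifit1, the only one of the 44, with Nlrc5, Parp12, Gm21370 and Ehd4. Nlrc5, an activator of MHC class I genes, was at 1.97, 2.66 and 1.23 FPKM with riebeckite asbestos, 1.71, 2.71 and 1.42 with riebeckite fragments, 2.86, 3.08 and 3.27 with tremolite asbestos, 2.04, 2.14 and 2.51 with tremolite fragments, and 2.34, 1.97 and 2.30 in untreated cells. Parp12, which is inducible by interferon, was at 25.1, 30.1 and 17.9 FPKM with riebeckite asbestos, 19.6, 26.5 and 18.7 with riebeckite fragments, 28.5, 30.6 and 35.4 with tremolite asbestos, 23.0, 25.1 and 25.6 with tremolite fragments, and 25.2, 23.2 and 24.0 in untreated cells. In both, riebeckite library 2 was highest and library 3 lowest. Gm21370 was at 9.71, 9.85 and 7.52 FPKM with riebeckite asbestos, 9.17, 12.1 and 6.91 with riebeckite fragments, 14.5, 14.9 and 17.4 with tremolite asbestos, 11.3, 11.8 and 12.8 with tremolite fragments, and 12.9, 11.6 and 12.9 in untreated cells. Ehd4 had the same order with little spread, at 30.1, 31.3 and 28.5 FPKM with riebeckite asbestos and 31.4, 31.5 and 31.1 with riebeckite fragments, and its pooled SD was 0.0433, below the median of all genes.

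The receptors and kinases upstream did not share this spread. The 12 genes of interferon receptors and JAK-STAT signalling had a median pooled SD of 0.0547, and 0 of 12 exceeded the 95th percentile of all genes. Of these 12, 6 rose and 4 fell after riebeckite asbestos, 4 and 3 after riebeckite fragments, 5 and 2 with tremolite asbestos, and 5 and 2 with tremolite fragments, against untreated cells. Over all genes tested, 21% rose and 24.3% fell after riebeckite asbestos, 15.3% and 23.1% after riebeckite fragments, 10% and 13.9% with tremolite asbestos, and 12.5% and 15% with tremolite fragments. Ifngr2, a chain of the interferon gamma receptor, averaged 49.3 ± 0.912 FPKM with riebeckite asbestos, 41.96 ± 1.83 with riebeckite fragments, 42.6 ± 0.583 with tremolite asbestos, 40.3 ± 0.582 with tremolite fragments, and 29.7 ± 0.474 in untreated cells (SD, n = 3 each), and limma called it higher in all 4 comparisons (log2 differences 0.71, 0.48, 0.51 and 0.43). Ifnlr1, a chain of the interferon lambda receptor, averaged 4.77 ± 0.196 FPKM with riebeckite asbestos, 3.36 ± 0.446 with riebeckite fragments, 2.16 ± 0.148 with tremolite asbestos, 2.36 ± 0.396 with tremolite fragments, and 1.10 ± 0.116 in untreated cells (SD, n = 3 each), and it was called higher in all 4 (1.46, 1.05, 0.59 and 0.67). Tyk2 was called lower in all 4, at -0.19, -0.24, -0.16 and -0.18. Jak2 was called lower after riebeckite asbestos and riebeckite fragments, at -0.43 and -0.42, and was at -0.14 and -0.15 in the tremolite comparisons.

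Of 24 listed genes that sense nucleic acids upstream of interferon, 19 were tested. After riebeckite asbestos 4 rose and 4 fell, after riebeckite fragments 3 and 4, with tremolite asbestos 2 and 1, and with tremolite fragments 3 and 2, all against untreated cells. For riebeckite asbestos 4 of 19 stands beside 21% of all genes higher and 24.3% lower, and for riebeckite fragments 3 and 4 stand beside 15.3% and 23.1%, so these shares are near those of all genes. With tremolite the shares of all genes were 10% higher and 13.9% lower for asbestos, and 12.5% and 15% for fragments. Tbk1, the kinase that activates interferon regulatory factors, averaged 38.4 ± 2.02 FPKM with riebeckite asbestos, 34.7 ± 1.27 with riebeckite fragments, 37.1 ± 1.15 with tremolite asbestos, 36.8 ± 1.49 with tremolite fragments, and 26.5 ± 2.86 in untreated cells (SD, n = 3 each), and it was called higher in all 4 comparisons. Unc93b1, which carries endosomal Toll-like receptors, averaged 58.4 ± 3.18 FPKM with riebeckite asbestos, 58.01 ± 0.616 with riebeckite fragments, 68.6 ± 1.80 with tremolite asbestos, 65.7 ± 0.873 with tremolite fragments, and 78.1 ± 1.51 in untreated cells (SD, n = 3 each), and it was called lower in all 4. Ikbke was called lower after riebeckite fragments at -0.21. Ticam2 was called lower after riebeckite asbestos at -0.26 and after riebeckite fragments at -0.15. Of 23 listed brakes on interferon signalling, 22 were tested. Of these, 3 rose and 7 fell after riebeckite asbestos, 1 and 7 after riebeckite fragments, 2 and 1 with tremolite asbestos, and 2 and 3 with tremolite fragments, to be read against the same shares of all genes. Samhd1, which degrades deoxynucleotides and limits sensing of DNA, averaged 37.1 ± 2.25 FPKM with riebeckite asbestos, 43.5 ± 3.10 with riebeckite fragments, 53.5 ± 0.996 with tremolite asbestos, 46.9 ± 0.869 with tremolite fragments, and 60.9 ± 2.56 in untreated cells (SD, n = 3 each), and it was called lower in all 4 (-0.70, -0.48, -0.18 and -0.37). Irf2, a repressor at interferon-responsive promoters, was called lower after riebeckite asbestos, riebeckite fragments and tremolite fragments (-0.64, -0.67 and -0.28), as was the phosphatase gene Ptpn1 (-0.40, -0.53 and -0.23). Otud5, a deubiquitinase, was called higher after tremolite asbestos and tremolite fragments (0.13 and 0.29).

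Other interferon-responsive genes, on a list apart from the 44, were mostly highest in the same riebeckite libraries. That list was also chosen with earlier results of these data known, and the libraries were picked by the mean of the 44. The counts of genes highest in a library are therefore a description and carry no test. Of 99 listed, 75 were tested, with a median pooled SD of 0.184, and 17 of them exceeded the 95th percentile of all genes. In riebeckite asbestos library 2, 65 of the 75 were highest, against 33.8% of all genes, and in riebeckite fragment library 2, 64 were, against 29.0%. The order was not particular to riebeckite. In tremolite asbestos library 3, 57 were highest, against 25.5% of all genes, and in tremolite fragment library 3, 42 were, against 35.4%. Against untreated cells 8 rose and 19 fell after riebeckite asbestos, 6 and 21 after riebeckite fragments, 17 and 3 with tremolite asbestos, and 4 and 11 with tremolite fragments. Over all genes these shares were 21% and 24.3%, 15.3% and 23.1%, 10% and 13.9%, and 12.5% and 15%, so the 19 and 21 of 75 that fell after riebeckite are near the background. Tremolite asbestos exceeded riebeckite asbestos in 30 and was lower in 2, against 11% and 15.5% of all genes. Gbp8, another guanylate-binding protein, averaged 3.88 ± 0.366 FPKM with riebeckite asbestos, 5.99 ± 1.10 with riebeckite fragments, 9.53 ± 0.658 with tremolite asbestos, 8.46 ± 0.149 with tremolite fragments, and 14.4 ± 0.713 in untreated cells (SD, n = 3 each), and it was called lower in all 4 comparisons with untreated cells. Mndal, a relative of Ifi203, averaged 0.443 ± 0.241 FPKM with riebeckite asbestos, 0.438 ± 0.0763 with riebeckite fragments, 1.93 ± 0.531 with tremolite asbestos, 0.812 ± 0.0860 with tremolite fragments, and 1.96 ± 0.218 in untreated cells (SD, n = 3 each). It was called lower after riebeckite asbestos, riebeckite fragments and tremolite fragments (-1.05, -1.04 and -0.71) and was at -0.03 after tremolite asbestos. Gm4951 was called lower in the same 3 comparisons (-1.30, -1.07 and -0.61). Cd274, the checkpoint ligand PD-L1, was called lower after riebeckite asbestos and riebeckite fragments (-0.47 and -0.23).

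Among 11 immunoproteasome and peptide transport genes, 2 rose and 5 fell after riebeckite asbestos, 2 and 6 after riebeckite fragments, 2 and 0 with tremolite asbestos, and 2 and 2 with tremolite fragments, against untreated cells. The shares of all genes were 21% and 24.3%, 15.3% and 23.1%, 10% and 13.9%, and 12.5% and 15% in the same order. B2m, the light chain of MHC class I, was called higher in all 4 comparisons (0.20, 0.38, 0.37 and 0.28), as was Tapbp, which loads peptides (0.80, 0.51, 0.61 and 0.41). Erap1, which trims peptides, and Psmb10, a subunit of the immunoproteasome, were called lower after riebeckite asbestos, riebeckite fragments and tremolite fragments (-0.45, -0.50 and -0.30 for Erap1, and -0.34, -0.58 and -0.48 for Psmb10). Transcripts of the mitochondrial genome fell in 13 of 13 genes after riebeckite asbestos, 4 after riebeckite fragments, 1 after tremolite asbestos and 0 after tremolite fragments, against untreated cells, where 24.3%, 23.1%, 13.9% and 15% of all genes fell. Their part in the levels of the 44 genes was not tested.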

How the data were processed

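The submitters' processing notes name GRCm38 as the build and cutadapt, HISAT2 and StringTie as tools. No source used here gives their roles, versions or annotation. Libraries came from mRNA captured on oligo(dT) and carried dUTP in the second strand, per the labels' protocols. The authors deposited gene and transcript tables of all 15 libraries whose values point to FPKM as their unit. No counts could be recovered from them, so the depth is unknown and no counting interval was made. FPKM are relative to a library's total.

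The 47 members, the other lists and the tests were chosen with earlier results of these data known. A gene was tested where 3 or more libraries reached 0.5 FPKM, which 10616 did. Values on the log2(FPKM + 1) scale entered limma (3.58.1, in R 4.3.3), with group means as coefficients, contrasts between them and variances moderated along a trend with mean level. A single model held all 15 libraries, and p-values were adjusted by Benjamini-Hochberg over the tested genes in each of 9 comparisons. The code was tested on simulated data. Values in every library are given for members called in a comparison (at most the 12 smallest adjusted p in each), for the 10 largest and 5 smallest pooled within-group SDs and for the 5 highest mean levels. From each other list up to 4 genes with the smallest overall p are named. A library was set apart at 1.5 times both others in FPKM + 1. Promoters came from a RefSeq table, and gene positions are those of the files. Words of 50 bases were compared between transcripts. Tables and plots used pandas 2.3.3, numpy 2.4.6 and matplotlib 3.10.9 in Python 3.11.15.

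Alternatives were TMM rescaling, quantile normalization, a pseudocount of 0.1, no trend, every gene tested, a stricter minimum (mean of 5 FPKM), array weights, transcript sums, a block by replicate number, fits of only the groups compared and the omission of each library. The omission of both riebeckite libraries numbered 2 was added after the data were seen.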

Additional observations from a re-analysis of the deposited data

Results flagged for a closer look

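The difference between the asbestos effects of tremolite and riebeckite was past the threshold for Gbp9, a guanylate-binding GTPase, and for 0 of the other 43 genes. It was 1.18 on the log2(FPKM + 1) scale (SE 0.297, limma adjusted p = 0.0455). Tremolite asbestos stood above tremolite fragments for this gene, whereas riebeckite asbestos stood below riebeckite fragments. With the listed transcripts of Gbp9 summed in place of its gene value, the difference was -0.0703 (limma adjusted p = 0.947). The call was lost when riebeckite asbestos library 1 or 3, riebeckite fragment library 2 or any of the 6 tremolite libraries was left out, and it was kept without riebeckite asbestos library 2 or riebeckite fragment library 1 or 3.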

How the results depend on the processing

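Counts of the 44 genes called by limma depended on the libraries and on the fit, and the cause was not tested. With array weights, 3 genes were higher after riebeckite asbestos and 1 after tremolite fragments, against untreated cells. With only the groups compared in the fit, higher genes numbered 2 after riebeckite asbestos, 34 after tremolite asbestos and 4 after tremolite fragments (7 lower) against untreated cells, 4 for tremolite asbestos over its fragments and 7 for tremolite over riebeckite asbestos. At a mean of at least 5 FPKM, which tests fewer genes, 2 were lower after riebeckite asbestos, 4 after riebeckite fragments and 0 after tremolite fragments against untreated cells, and 0 higher for tremolite over riebeckite fragments. With transcript sums these lower counts were 3 and 2 for riebeckite asbestos and fragments, and 9 were higher for tremolite over riebeckite asbestos. TMM rescaling left 4 lower after riebeckite fragments. Without both riebeckite libraries numbered 2, 18 and 30 were lower after riebeckite asbestos and fragments, and 41 and 28 higher for tremolite over riebeckite asbestos and fragments. After tremolite asbestos 34 were then higher than in untreated cells and 11 higher than after its fragments. After tremolite fragments 2 were higher and 4 lower than in untreated cells. The call for the difference of asbestos effects went to 0 with a pseudocount of 0.1, no trend, a mean of at least 5 FPKM, transcript sums or only the groups compared.

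Transcript sums reversed Gbp9, to -0.22 for tremolite over riebeckite asbestos and -0.0703 for the difference of effects. The mean difference of tremolite fragments from untreated cells, 0.0023, was -0.0032 with a pseudocount of 0.1 and -0.0067 with transcript sums. Of 42 single-gene results, 42 kept their call under quantile normalization and with no filter.

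Leaving out 1 library at a time gave, against untreated cells, 1 to 4 higher and 3 to 9 lower after riebeckite asbestos, 2 to 22 lower after riebeckite fragments and 3 to 6 higher after tremolite asbestos. It gave 0 to 1 higher for riebeckite asbestos over its fragments, 7 to 37 and 0 to 10 for tremolite over riebeckite asbestos and fragments, and 0 to 1 for the difference of effects. Mean differences from untreated cells ranged from -0.43 to 0.16 for riebeckite asbestos (positive without library 3), -0.73 to -0.22 for riebeckite fragments, 0.53 to 0.72 for tremolite asbestos and -0.059 to 0.044 for tremolite fragments (-0.019 without untreated library 2). They ranged from -0.031 to 0.58 for riebeckite asbestos over its fragments, 0.52 to 0.72 for tremolite asbestos over its fragments, and 0.48 to 1.08 and 0.22 to 0.73 for tremolite over riebeckite asbestos and fragments.

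Over all genes tested, 4 of 30 pairs of same-numbered libraries correlated above 0.1 in their deviations, from -0.0613 to 0.172. The number was therefore not taken as a pairing. In 25 of 60 cases a library was closest to its own number among the 3 libraries of another group, and over the 44 genes in 14 of 60. Over the 44 genes, riebeckite asbestos and fragment libraries of numbers 1, 2 and 3 correlated at 0.304, 0.916 and 0.904. Riebeckite asbestos and tremolite asbestos libraries of these numbers correlated at 0.279, -0.273 and -0.701. For riebeckite, asbestos minus fragments was 0.57, 0.18 and 0.02 by number, positive in 3 of 3. With the replicate number as a block, 0 genes were higher for tremolite over riebeckite fragments, and 40 of 42 single-gene results kept their call, all but Mx1 there and Igtp for tremolite over riebeckite asbestos. TMM rescaling moved the share of higher among all called genes to 51.9% (main 39.9%) after riebeckite fragments and 54.2% (41.8%) after tremolite asbestos against untreated cells. It was 46% (63.5%) for riebeckite asbestos over its fragments, 41.7% (53.1%) for tremolite over riebeckite fragments and 49.6% (32.6%) for the difference of effects, where quantile normalization gave 46.1% for the first and 45.2% for the last. Without counts, precision at low levels cannot be given.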
